A study of Homo sapiens with 6 samples.

Results

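The 10 genes DUSP4, DUSP5, DUSP6, SPRY1, SPRY2, SPRY4, SPRED1, SPRED2, ETV4 and ETV5 were examined as transcriptional readouts of ERK output. They were chosen by gene symbol, and all 10 were found among the 60504 genes of the expression table. RNA-seq libraries came from WM164, a human melanoma cell line, and the label of all 6 libraries gives the genotype BRAFV600E. The EV group (3 libraries) carried an empty expression vector and the HDAC8 group (3 libraries) an HDAC8 expression vector, and HDAC8 is a class I histone deacetylase. Both kinds of cells were transfected and kept in hygromycin. Whether a line is 1 clone or a pool, and whether the replicates, which the labels number as biological, were separate cultures, is not given in the sources used here. The p-values then measure only the spread between these libraries, which may be technical.

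ERK is the last kinase of the RAS, RAF, MEK and ERK cascade, which mutant BRAF keeps active in many melanomas. Active ERK raises transcription of its own inhibitors, so the level of these transcripts is widely used to read ERK output. DUSP proteins remove phosphate from ERK, Sprouty (SPRY) and SPRED proteins act upstream on receptor and RAS signalling, and ETV4 and ETV5 are transcription factors of the ETS family that ERK signalling induces.

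Total counts were 34741083 to 42041462 per library and overlapped between the groups. Mitochondrially encoded transcripts took 9.66% to 12.8% of counts in EV and 4.46% to 7.94% in HDAC8, with HDAC8 1 lowest, and the groups did not overlap. The transcript of HDAC8 itself averaged 422.3 ± 49.96 normalized counts in EV and 468.0 ± 20.3 in HDAC8 (SD, n = 3), with overlapping groups (DESeq2 adjusted p = 0.856). Its log2 fold change was 0.15, and the upper 95% limit of the fold change was 1.63. This transcript therefore does not check the labels, and directions are given as the labels have the groups. Of 6 melanocytic markers, all were present and PMEL, TYR, MLANA and DCT were called lower in HDAC8. MITF (log2 fold change -0.20, DESeq2 adjusted p = 0.544) and SOX10 (-0.33, 0.211) were not called. The summed level of the 6 was 243680 to 327470 normalized counts in EV and 136370 to 181340 in HDAC8. Most of this sum was PMEL, with 169800 to 247770 in EV and 89540 to 147940 in HDAC8. Of 10 markers of other cell types, 7 were tested and summed to 5087 to 5652 in EV and 5584 to 7985 in HDAC8. Among these, DCN and EPCAM had no count in any library and PTPRC had counts only in HDAC8 1, while CD68 and CD3E were called higher in HDAC8. Log2 fold changes were above 0 in 3 of the 7 and below 0 in 4, and 0 were called lower by DESeq2. CD68 had the largest mean of the 7 in both groups, with 2286 to 3302 normalized counts in EV and 4192 to 6114 in HDAC8. LUM, a fibroblast marker named after its values were seen, also made up much of the EV sum. LUM had 2205 to 2662 normalized counts in EV and 1054 to 2158 in HDAC8, without overlap (log2 fold change -0.60, DESeq2 unadjusted p = 0.0119 and adjusted p = 0.0778). It was at -0.36 without HDAC8 replicate 1, and was called without HDAC8 replicate 2 (-0.85, DESeq2 adjusted p = 0.00421). CD3E had no count in EV and 50.1 to 91.1 normalized counts in HDAC8. The part of these shifts in the results below was not tested. In bulk RNA, fewer cells that express a gene and less RNA per cell cannot be told apart.

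The members moved in both directions. DUSP5 was higher in the libraries labelled HDAC8, SPRY1 and ETV4 were lower, and SPRY4 was lower by less than the fold change minimum. A gene was called when its DESeq2 adjusted p (two-sided Wald test, Benjamini-Hochberg over all genes) was under 0.05 and its log2 fold change at least 0.58 in size. By this rule 1 of 10 members was called higher and 2 lower, counts that edgeR and limma-voom gave as well. A stricter DESeq2 test of whether the change exceeded the fold change minimum called 0 of them (adjusted p = 0.160 for DUSP5, 0.653 for SPRY1 and 1 for ETV4). Over all 21021 genes with an adjusted p, 5.57% were called higher and 5.44% lower, and 11% in either direction. Called genes made up 17.2% (9.05% higher and 8.18% lower) of the 6519 genes with a mean of at least 1000 normalized counts, a level that SPRY1 alone of the members was under. Groups did not overlap in 6 of the 10 members, against 24% of all genes tested and 41.2% of genes with a mean of at least 1000. The median log2 fold change of the members was -0.08, against 0.00 over all genes tested. With so few members, the counts were not read as different from the background.

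**Figure D1:**
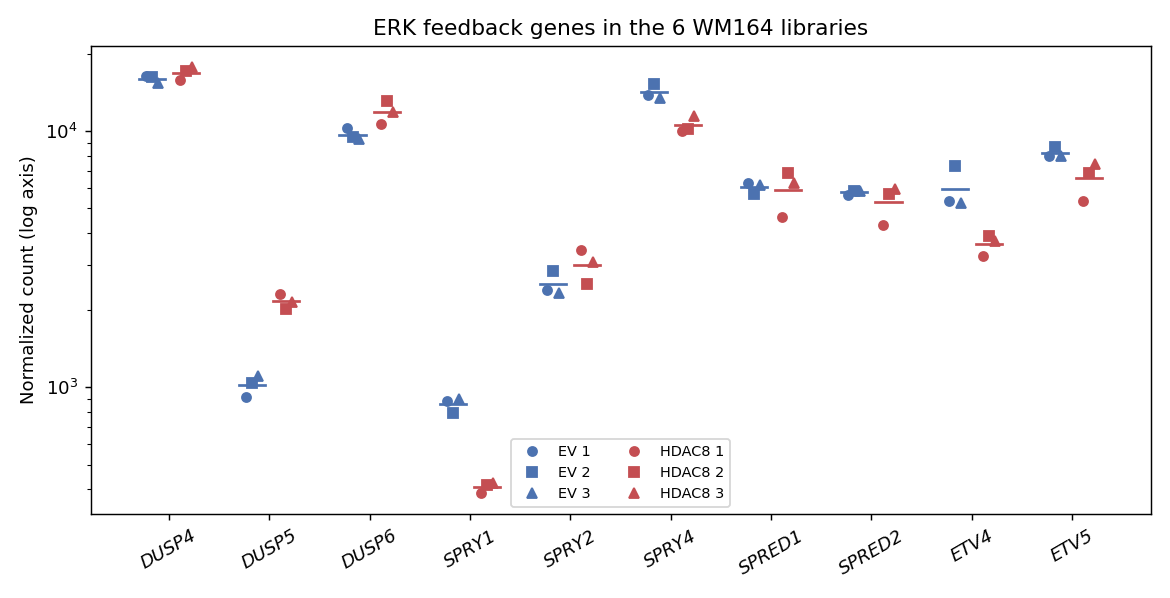
Normalized count (log axis) of the 10 genes in each library, with EV in blue and HDAC8 in red, a marker shape for each replicate number and a line at the group mean. DUSP5 stands higher in all 3 HDAC8 libraries, SPRY1 and ETV4 stand lower, and DUSP4, SPRY2, SPRED1 and SPRED2 overlap.

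The DUSP phosphatases were taken first. DUSP5 (ENSG00000138166, GRCh38 chromosome 10, 110497907 to 110511533, plus strand) encodes a nuclear phosphatase that acts on ERK. Its normalized counts were 914.4, 1045 and 1107 in EV and 2324, 2030 and 2152 in HDAC8. Every HDAC8 library was thus above every EV library, with a gap between the groups wider than the spread within either. The mean rose from 1022 ± 98.5 to 2169 ± 147.8 (SD, n = 3). On the log2 scale this was a difference of 1.08 with a standard error of 0.18 (DESeq2 adjusted p = 1.71e-07), or 2.12-fold with a 95% interval of 1.65 to 2.72. The call held with each library left out in turn, at log2 fold changes of 1.01 to 1.14.

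DUSP6 (ENSG00000139318, chromosome 12, 89347235 to 89352501, minus strand) encodes a cytoplasmic phosphatase of ERK and is one of the most used readouts of ERK activity. Its normalized counts were 10276, 9549 and 9312 in EV and 10662, 13170 and 11916 in HDAC8. The groups did not overlap, but EV 1 and HDAC8 1 lay close together. The log2 fold change of 0.29 (SE 0.13) did not pass the test (DESeq2 adjusted p = 0.143), and the 95% interval of the fold change ran from 1.02 to 1.47. Without HDAC8 replicate 1 it was 0.37, past the p threshold (DESeq2 adjusted p = 0.00452) and still under the fold change minimum. Exons of DUSP6 share 1105 bases with AC024909.2, a noncoding gene on the other strand with mean normalized counts of 467.3 in EV and 721.1 in HDAC8. No source states strand-specific counting, so reads from these bases cannot be assigned.

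DUSP4 (ENSG00000120875, chromosome 8, 29333064 to 29350684, minus strand) encodes a nuclear phosphatase of ERK and other MAP kinases. It had 16404, 16324 and 15510 normalized counts in EV and 15810, 17168 and 17808 in HDAC8. The groups overlapped and the spread within EV was small, with a coefficient of variation of 3.08%. DUSP4 differed by 0.07 on the log2 scale (SE 0.12, DESeq2 adjusted p = 0.821). Its 95% interval as a fold change was 0.894 to 1.24, so a change of the size seen in DUSP5 lies outside it.

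The Sprouty genes followed, of which 1 was called. SPRY1 (ENSG00000164056, chromosome 4, 123396795 to 123403760, plus strand) had normalized counts of 885.0, 792.0 and 901.4 in EV and 387.4, 415.8 and 423.6 in HDAC8. All HDAC8 libraries lay well under all EV libraries, and both groups were tight. The mean fell from 859.5 ± 59.0 to 408.9 ± 19.1 (SD, n = 3). Its log2 fold change, -1.07 with a standard error of 0.24, passed the test (DESeq2 adjusted p = 2.32e-04). As a fold change this was 0.476 with a 95% interval of 0.342 to 0.662. Leaving out each library in turn gave log2 fold changes from -1.13 to -1.04, all called.

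SPRY4 (ENSG00000187678, chromosome 5, 142310427 to 142326455, minus strand) is expressed at a higher level. It had 13906, 15309 and 13465 normalized counts in EV and 10067, 10244 and 11469 in HDAC8. The groups did not overlap, and the log2 fold change of -0.43 (SE 0.13) passed the p threshold alone (DESeq2 adjusted p = 0.0109). A total of 2.01% of genes lay past the p threshold with a fold change under the minimum. This p was over 0.05 under edgeR's quasi-likelihood test (adjusted p = 0.0843), with the replicate block (DESeq2 adjusted p = 0.0649) and without EV replicate 1 (0.0697), EV replicate 2 (0.0738) or HDAC8 replicate 2 (0.0512). SPRY4-AS1, which is named as the antisense partner of SPRY4, had 59.1 to 92.5 normalized counts in EV and 26.6 to 152.2 in HDAC8, with overlapping groups. Its log2 fold change was -0.01 and turned to 0.06 with total-count size factors, while leaving out a library moved it between -1.15 and 0.39.

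SPRY2 (ENSG00000136158, chromosome 13, 80335976 to 80341126, minus strand) had 2399, 2852 and 2345 normalized counts in EV and 3432, 2534 and 3089 in HDAC8. The groups overlapped, since EV 2 was above HDAC8 2. SPRY2 differed by 0.25 on the log2 scale (SE 0.18, DESeq2 adjusted p = 0.430), with a 95% interval of the fold change from 0.937 to 1.52. Without HDAC8 replicate 1, the highest library, it was 0.15.

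To show the regions before the starts of genes that were and were not called, the 250 bases upstream of a RefSeq start (GRCh38.p14) are given. They are given for SPRY1, which fell, and for SPRY2 and DUSP6, which did not pass the test. SPRY1 and SPRY2 had further RefSeq starts, and the window shown is the one next to the gene boundary given above. Which start these cells use was not measured. The windows are chr4:123396545-123396794 (plus strand), chr13:80341127-80341376 (minus strand) and chr12:89352502-89352751 (minus strand), written 5′ to 3′ along the strand of the gene. Capitals mark a match to a searched motif, here CACATG, the M-box core CATGTG read on the other strand.
SPRY1: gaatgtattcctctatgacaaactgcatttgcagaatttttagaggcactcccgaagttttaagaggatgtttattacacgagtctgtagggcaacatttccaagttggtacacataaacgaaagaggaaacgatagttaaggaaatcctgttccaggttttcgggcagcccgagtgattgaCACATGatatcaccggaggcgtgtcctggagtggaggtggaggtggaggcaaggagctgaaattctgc
SPRY2: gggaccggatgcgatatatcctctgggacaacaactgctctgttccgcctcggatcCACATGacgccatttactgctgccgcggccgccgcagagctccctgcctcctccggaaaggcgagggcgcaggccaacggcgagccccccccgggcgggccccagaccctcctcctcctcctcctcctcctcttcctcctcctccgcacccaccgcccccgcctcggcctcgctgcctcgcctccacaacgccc
DUSP6: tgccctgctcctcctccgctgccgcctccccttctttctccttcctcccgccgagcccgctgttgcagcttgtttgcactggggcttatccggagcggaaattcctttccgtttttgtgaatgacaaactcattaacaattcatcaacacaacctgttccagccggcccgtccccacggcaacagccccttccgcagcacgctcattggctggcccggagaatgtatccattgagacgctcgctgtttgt
The RefSeq table held 10 start windows for 6 members (DUSP6, SPRY1, SPRY2, SPRY4, SPRED1 and SPRED2). Both strands were searched for an ETS core (CCGGAAG), 2 octamers of the repressor CIC (TGAATGAA and TGAATGGA), the AP-1 site (TGANTCA), the E-box CACGTG, the M-box core CATGTG and the CRE (TGACGTCA). No motif overlapped another in the 3 windows shown. The M-box core was in 2 of the 10 windows, those shown for SPRY1 and SPRY2, and in 9.45% of 34943 windows of all genes. The ETS core was in 1 of the 10, a further SPRY1 start, and in 8.48% of all windows. The 3 windows shown held no other searched motif, and the M-box core was thus present in a gene that fell and in one that did not pass the test. A match describes letters only and is not a measured binding site.

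SPRED1 and SPRED2 encode membrane-bound relatives of Sprouty that bring neurofibromin, an inactivator of RAS, to the membrane. SPRED1 (ENSG00000166068, chromosome 15, 38252836 to 38357249, plus strand) had 6299, 5716 and 6161 normalized counts in EV and 4639, 6857 and 6282 in HDAC8. The HDAC8 libraries spanned the whole EV range. On the log2 scale HDAC8 differed from EV by -0.03 (SE 0.17, DESeq2 adjusted p = 0.961, 95% interval of the fold change 0.781 to 1.22). The sign turned to 0.12 without HDAC8 replicate 1.

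SPRED2 (ENSG00000198369, chromosome 2, 65310851 to 65432637, minus strand) had 5652, 5871 and 5854 normalized counts in EV and 4301, 5701 and 5939 in HDAC8. Again HDAC8 1 was the low library and the other libraries lay together. For SPRED2 the log2 difference came to -0.12 (SE 0.16, DESeq2 adjusted p = 0.747, 95% interval of the fold change 0.741 to 1.14), and 0.01 without HDAC8 replicate 1.

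Of the ETS factors, ETV4 was called. ETV4 (ENSG00000175832, chromosome 17, 43527844 to 43579620, minus strand) had 5365, 7323 and 5258 normalized counts in EV and 3249, 3920 and 3731 in HDAC8. The groups did not overlap, and EV 2 was well above the other EV libraries. The mean fell from 5982 ± 1163 to 3634 ± 346.0 (SD, n = 3). This was -0.72 on the log2 scale with a standard error of 0.17 (DESeq2 adjusted p = 5.04e-04), and the fold change of 0.607 had a 95% interval of 0.482 to 0.766. Without EV replicate 2 the log2 fold change was -0.55 (DESeq2 adjusted p = 0.0156), under the fold change minimum, so the call rests on that library.

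ETV5 (ENSG00000244405, chromosome 3, 186046314 to 186110318, minus strand) had 8037, 8677 and 7985 normalized counts in EV and 5344, 6905 and 7453 in HDAC8. All HDAC8 libraries were under all EV libraries, with HDAC8 1 farthest. The log2 fold change of -0.33 (SE 0.15) did not pass the test (DESeq2 adjusted p = 0.164, 95% interval of the fold change 0.647 to 0.983), and without HDAC8 replicate 1 it was -0.20. ETV4 shares 68 exonic bases with DHX8 on the other strand, and ETV5 shares 164 with DGKG on the same strand. DHX8 averaged 2091 normalized counts in EV and 1482 in HDAC8, and DGKG 144.1 and 260.3. Reads from these bases cannot be assigned, and their part in the values of ETV4 and ETV5 was not tested.

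**Figure D2:**
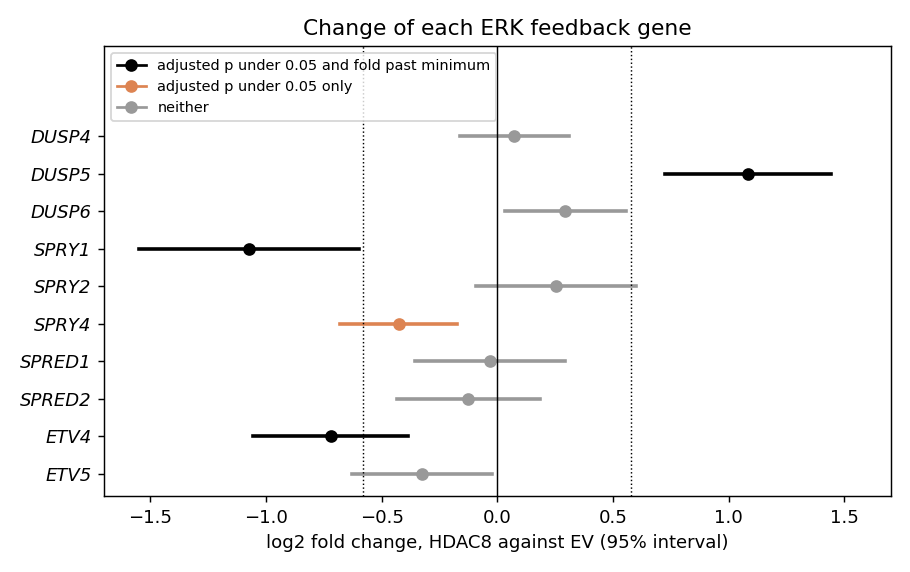
The log2 fold change (HDAC8 against EV) of each gene with its 95% interval from the DESeq2 standard error, coloured by which thresholds it passed, with dotted lines at 0.58 in both directions. The interval of DUSP5 lies above the upper line and that of SPRY1 below the lower one, while the intervals of DUSP4, SPRY2, SPRED1 and SPRED2 hold 0.

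The libraries were also compared with each other. Among the HDAC8 libraries, HDAC8 1 was the lowest of the 3 in 8 members and the highest in the others, DUSP5 and SPRY2. Its mitochondrial share was the lowest of all libraries (4.46%). The coefficient of variation within HDAC8 ran from 4.67% (SPRY1) to 19.4% (SPRED1), and within EV from 2.10% (SPRED2) to 19.4% (ETV4). Without HDAC8 replicate 1, again 1 member was called higher and 2 lower, and a fit without mitochondrially encoded genes gave the same counts.

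Ratios between paralogs within a library do not depend on scaling between libraries. The expected counts of DUSP5 per DUSP6 were 0.0890, 0.109 and 0.119 in EV and 0.218, 0.154 and 0.181 in HDAC8. The mean ratio was 0.106 ± 0.0153 in EV and 0.184 ± 0.0321 in HDAC8 (SD, n = 3), without overlap. The SPRY1 per SPRY2 ratio was 0.369, 0.278 and 0.384 in EV and 0.113, 0.164 and 0.137 in HDAC8, also without overlap. These ratios show that the members changed unequally, in both families. SPRY1 per SPRY4 was 0.0608 ± 0.00800 in EV and 0.0387 ± 0.00184 in HDAC8, so SPRY1 fell by a larger factor than SPRY4. ETV4 per ETV5 was 0.723 ± 0.105 in EV and 0.559 ± 0.0543 in HDAC8, with EV 3 (0.658) and HDAC8 1 (0.608) the nearest libraries. SPRED1 per SPRED2 overlapped between the groups, at 1.05 ± 0.0706 and 1.11 ± 0.0783 (SD, n = 3).

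**Figure D3:**
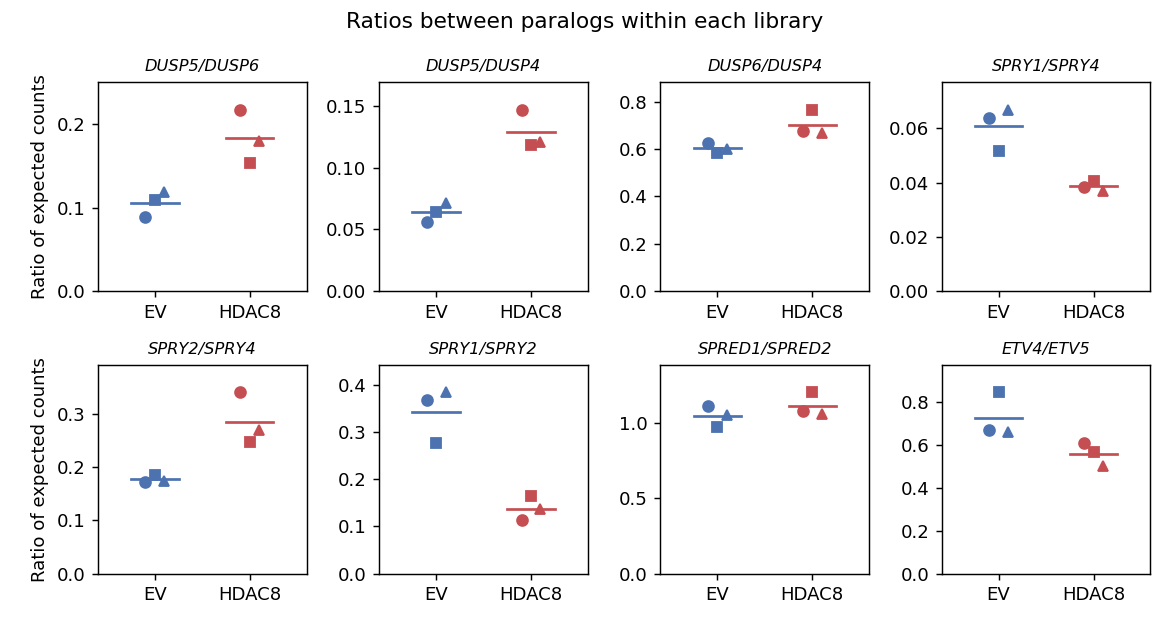
Ratio of expected counts between pairs of paralogs in each library, with EV in blue, HDAC8 in red, lines at the group means and axes from 0. Groups are apart in every pair shown except SPRED1 per SPRED2.

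Levels were compared between genes as normalized counts per kb of the Ensembl canonical transcript in GENCODE 44. In EV the highest levels were those of SPRY4 (2901 ± 196.4 per kb), DUSP4 (2896 ± 89.1), DUSP6 (2678 ± 138.5) and ETV4 (2562 ± 498.0), and neighbours among these 4 overlapped. ETV4 did not overlap ETV5 (2017 ± 94.4), and ETV5, SPRED2 (1282 ± 26.9), SPRY2 (1108 ± 121.9), SPRED1 (833.4 ± 41.9), DUSP5 (412.7 ± 39.8) and SPRY1 (330.2 ± 22.7) followed without overlap between neighbours. DUSP5 and SPRY1, which had the changes of largest size among the members, were thus the members at the lowest levels in EV. In HDAC8 the order began with DUSP6 (3285 ± 345.7 per kb) and DUSP4 (3049 ± 183.7), which overlapped, followed by SPRY4 (2160 ± 155.7) without overlap. ETV5 (1609 ± 268.0) and ETV4 (1556 ± 148.2) overlapped each other, and ETV4 overlapped SPRY2 (1320 ± 198.4). SPRED2 (1176 ± 195.9) overlapped SPRY2 and not DUSP5. DUSP5 reached 875.5 ± 59.7 per kb, level with SPRED1 (815.1 ± 158.3), and SPRY1 stayed last at 157.1 ± 7.33 (SD, n = 3 for each).

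Other genes of these families were taken from a list of 10. Of these, 2 were called higher and 1 lower, and the median log2 fold change was 0.51. For this list and those below, the shares over all genes with an adjusted p were 5.57% higher and 5.44% lower. List counts were not tested against these shares. DUSP2, a nuclear phosphatase of ERK best known in immune cells, had 7.34, 7.47 and 11.8 normalized counts in EV and 168.4, 108.6 and 65.3 in HDAC8. DUSP9, a cytoplasmic phosphatase of ERK, had 15.7, 5.60 and 5.91 in EV and 63.3, 92.2 and 69.7 in HDAC8. Both were rare transcripts in EV and all HDAC8 libraries were above all EV libraries. Their log2 fold changes were 3.69 (SE 0.79, DESeq2 adjusted p = 7.53e-05) and 3.05 (SE 0.91, DESeq2 adjusted p = 0.00920).

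DUSP9 was not called by edgeR (adjusted p = 0.0649) or limma-voom (0.0985), nor without EV replicate 2 (0.0546), EV replicate 3 (0.0551), HDAC8 replicate 2 (0.0741) or HDAC8 replicate 3 (0.0628), and limma-voom gave 0.0522 for DUSP2. DUSP16, which acts on the stress kinases JNK and p38, fell from 1916 ± 83.6 to 1215 ± 79.5 normalized counts (log2 fold change -0.66, DESeq2 adjusted p = 0.00327). DUSP16 was no longer called once EV replicate 3 (0.0583) or HDAC8 replicate 3 (0.0528) was left out. DUSP10, with the same substrates, had 5811 ± 403.6 in EV and 3974 ± 393.2 in HDAC8, past the p threshold alone (log2 fold change -0.55, DESeq2 adjusted p = 0.00295). It was past the fold change minimum too without EV replicate 3 (-0.61) or HDAC8 replicate 2 (-0.61).

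The other 6 relatives did not pass the test. ETV1, the third gene of the ETV4 and ETV5 subfamily, had 2456, 2276 and 2795 normalized counts in EV and 2400, 4245 and 4057 in HDAC8. HDAC8 1 lay among the EV libraries, and the log2 fold change was 0.51 (DESeq2 adjusted p = 0.0990), or 0.72 without HDAC8 replicate 1 (1.67e-05). The remaining log2 fold changes were -0.30 for DUSP1, 0.40 for DUSP7, 0.51 for DUSP8, 0.68 for SPRY3 and 0.52 for SPRED3, with DESeq2 adjusted p from 0.364 to 0.889. Leaving out 1 library moved DUSP1 between -0.49 (without HDAC8 replicate 1) and -0.11 (without EV replicate 2), and the rare transcripts DUSP8 between 0.10 and 1.38 and SPRY3 between 0.125 and 1.198 (both lowest without HDAC8 replicate 2 and highest without EV replicate 3).

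**Figure D4:**
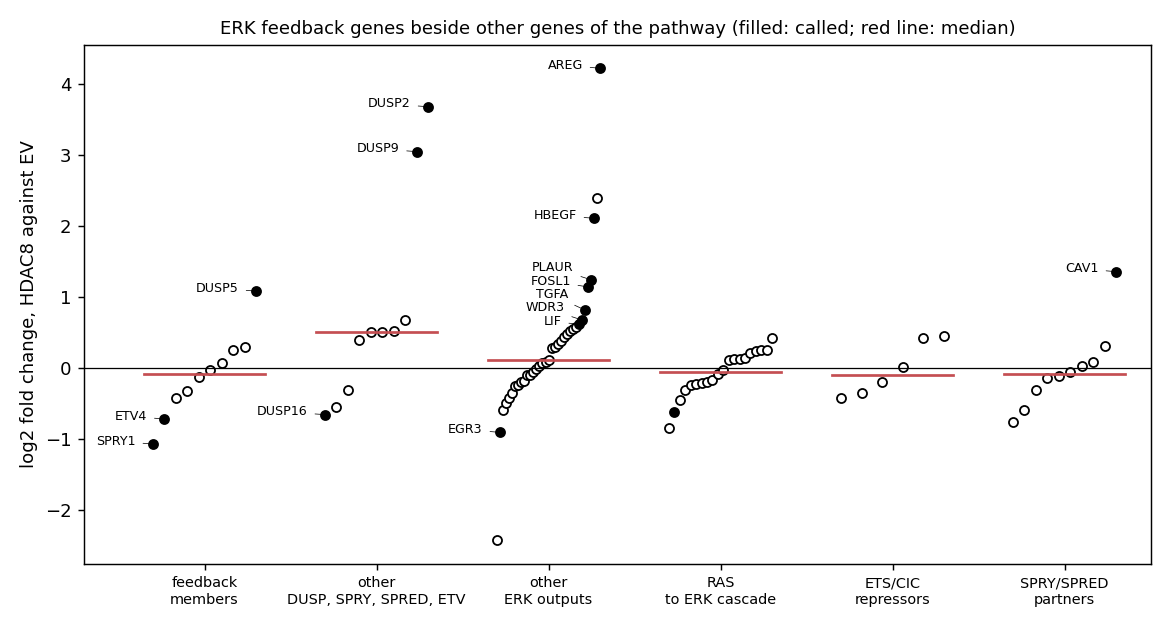
The log2 fold change (HDAC8 against EV) of every tested gene in 6 lists, each point a gene, filled where called (names are given outside the cascade list), with a red line at the median of the list. The members lie on both sides of 0, and the EGFR ligands AREG and HBEGF stand highest among the other outputs that were called.

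Transcripts that ERK signalling also induces were followed in a list of 36, of which 35 were tested and EREG had no count. In this list 7 genes were called higher and 1 lower, with a median log2 fold change of 0.11. The 6 called genes with the largest change included 3 that encode ligands of the EGF receptor. AREG (amphiregulin) rose from 112.7 ± 31.2 to 2114 ± 138.2 normalized counts (log2 fold change 4.23, DESeq2 adjusted p = 2.88e-64), HBEGF from 500.2 ± 63.5 to 2164 ± 142.7 (2.11, 6.16e-24) and TGFA from 1056 ± 177.6 to 1862 ± 100.8 (0.82, 7.48e-04). PLAUR, the urokinase receptor, rose by 1.24 (DESeq2 adjusted p = 1.30e-05) and FOSL1, an AP-1 subunit, by 1.14 (4.30e-09), as log2 fold changes.

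EGR3, an immediate early zinc finger factor, fell from 4066 ± 195.8 to 2169 ± 178.2 normalized counts (log2 fold change -0.91, DESeq2 adjusted p = 1.60e-07). WDR3 (0.68) and LIF (0.62) made up the called genes, and LIF was under the fold change minimum without EV replicate 1 (0.54), EV replicate 3 (0.56) or HDAC8 replicate 1 (0.49). IER3 (0.55) and GTPBP4 (-0.49) passed the p threshold alone. Much used outputs such as EGR1 (-0.18, DESeq2 adjusted p = 0.506), FOS (0.11, 0.771), PHLDA1 (0.07, 0.875) and MYC (-0.01, 0.987), chosen for naming after their values were seen, did not pass the test.

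Genes of the cascade itself were mostly not called. Of 20 genes from the receptor adaptors through RAS and its inactivators to the RSK kinases, 0 were called higher and 1 lower by DESeq2, and the median log2 fold change was -0.05. At an unadjusted p under 0.05, 0 were higher and 4 lower, and edgeR and limma-voom also called 0 higher and 1 lower. Of 6 transcriptional repressors of these outputs, among them CIC, 0 were called in either direction by DESeq2, edgeR or limma-voom, while 2 were higher and 2 lower at an unadjusted p under 0.05, and ERF (0.45, DESeq2 adjusted p = 0.203), CIC (0.43, 0.117) and ETV3 (-0.42, 0.0692) had log2 fold changes of nearly equal size. Without EV replicate 2, ERF (0.67, DESeq2 adjusted p = 0.0465) and CIC (0.60, 0.0175) were called, and without EV replicate 3 ERF was at 0.26.

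Of 10 genes for adaptors and partners of Sprouty and SPRED, 1 was called. CAV1, the coat protein of caveolae, rose from 1451 ± 274.9 to 3722 ± 1246 normalized counts. With 3 libraries a group this was 1.36 on the log2 scale (DESeq2 adjusted p = 8.29e-07). HDAC8 1, at 2317, was the lowest HDAC8 library and still above all EV libraries. The called member with the smallest p was DUSP5, and of 14441 genes with a mean of at least 50, MACF1 and LSG1 were among the 3 whose pattern over the 6 libraries was most like it. Pearson correlations of log2(normalized count + 1) were 0.998 for both, and these libraries share their 2 groups. MACF1, which links microtubules and actin, rose from 55784 ± 3212 to 98386 ± 6332 normalized counts. LSG1, a GTPase of ribosome assembly, rose from 1858 ± 114.8 to 2938 ± 53.5 (SD, n = 3).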

How the data were processed

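RNA was sequenced from 3 EV and 3 HDAC8 libraries of WM164 cells. Read pairs were cleaned by the authors with Trimmomatic, mapped with STAR and quantified with RSEM, which gives expected counts. The authors deposited these expected counts without scaling between libraries. Genome build, annotation release, strand setting and duplicate removal are not given in the sources used here, and the labels and the methods name different RNA kits.

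The rounded counts were fitted with DESeq2 1.42.0 in R 4.3.3 (group only), the test and thresholds of the study's methods (a figure legend of the study gives an unadjusted p, run here as an alternative), over the 26162 genes whose counts summed to 10 or more. DESeq2 gave no adjusted p for 5141 genes. A normalized count is a count divided by the DESeq2 size factor (0.918 to 1.17). Intervals are at the 95% level, from the DESeq2 standard error. Positions and lengths came from GENCODE 44 (GRCh38), joined by Ensembl identifier for all 10 members, and may not be those of the authors' annotation.

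The members, lists and tests were chosen with earlier results of these data known. The naming rule took all members and relatives, the called genes of other lists (the 6 with the largest change where more were called, and the largest change where none was), the 3 genes most like the member with the smallest p, and HDAC8. Of the genes this rule took, 2 are not reported here. Alternatives were edgeR 4.0.16, limma-voom (limma 3.58.1), other scalings and filters, a fit without mitochondrial genes, the replicate block, a test against the fold change minimum, an unadjusted p, and each library left out.

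A simulation changed 200 of the 26162 genes, all with a mean of at least 400. DESeq2 recovered 31% of genes changed 1.5-fold, 73.6% changed 2-fold and 100% changed 3-fold. It made 78 false calls among 210 calls. Of these false calls, 46 were at a mean under 50 and 16 among the 9284 unchanged genes with a mean of at least 400. At 1.5-fold the median estimated log2 size was 0.5798, at the fold change minimum of 0.58, which limited recovery in advance. A far larger share of genes, 11%, was called in the data. The simulated shares are therefore not the power or the error rate of the calls above. The other tools differed in the same simulation. For edgeR 104 of 243 calls were false, 35 of them at a mean of at least 400, and 77.8% of genes changed 2-fold were recovered. For limma-voom 1 of 50 calls was false, and 0%, 18.1% and 63.2% of genes changed 1.5-fold, 2-fold and 3-fold were recovered. No 2 libraries of a group were alike within counting error (chi-square per degree of freedom 26.0 to 153.4).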

Additional observations from a re-analysis of the deposited data

How the results depend on the processing

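Under 16 alternatives, members kept direction and call in 153 of 160 values, 4 lost the call and 3 changed sign. Against the fold change minimum itself, 0 members, and of all genes 292 higher and 291 lower, were called by DESeq2, and of the other ERK outputs 3 higher and 0 lower. This test asks whether the change is larger than the minimum. With an unadjusted p in place of the adjusted one and the fold change minimum kept, 1839 genes were higher and 1856 lower. Member counts stayed at 1 higher and 2 lower. By a DESeq2 unadjusted p under 0.05 alone, without the minimum, 2 members were higher and 4 lower, and the share over all genes was not counted. Log2 fold changes turned sign with total-count size factors for SPRED1 (0.0018), MYC (0.031) and SPRY4-AS1 (0.062). Leaving out a library moved SPRED1 between -0.15 and 0.12, SPRED2 between -0.21 and 0.0052 (both highest without HDAC8 replicate 1), FOS between -0.017 and 0.20, PHLDA1 between -0.036 and 0.19, MYC between -0.075 and 0.11, and SPRY4-AS1 between -1.15 and 0.39. The cause was not tested. When one library at a time was dropped, 1 to 2 members were called lower (1 without EV replicate 2) and 1 higher each time. The counts of all genes then lay between 877 and 1218 higher and between 746 (without EV replicate 3) and 1378 lower, and those of ERK outputs between 6 and 8 higher. Libraries sharing a number did not deviate together, with correlations of deviations of -0.027, -0.066 and 0.040. The replicate block gave 1075 genes higher, 1078 lower, and 1 member higher and 2 lower. Scalings moved the median log2 fold change of genes by at most 0.04. For the other genes named, 594 values stayed on the same side of the thresholds without a change of sign, and genes were no longer called in 39, became called in 10 and turned sign in 9.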
